A study of Mus musculus with 2 samples.

Results

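The genes of tight junctions and gap junctions were examined in epithelial cells from the submandibular glands of young and aged mice. The 61 genes were chosen by their symbols in the scanner files, as all claudins (Cldn), the zonula occludens scaffolds (Tjp), occludin (Ocln) and the other Marveld genes, the junctional adhesion molecules (F11r, Jam2 and Jam3) and all connexins of the Gja, Gjb, Gjc and Gjd groups, out of 37003 genes on the array. Both groups were females labelled as C57BL/6 (named C57BL/6N in the methods of the study), the young ones at 9 weeks and the aged ones at 24 months of age, with no genetic change and no treatment given in the labels. After digestion of the gland, cells carrying EpCAM (CD326), a surface protein of epithelial cells, were collected on magnetic beads. For each age, RNA of these cells carrying a Cy3 label was put on 1 Agilent mouse array. The young mice came from a supplier and the aged mice from the animal facility of the institute, so age and origin cannot be told apart. With 1 array per age there was no replicate check, no test and no p-value, and every difference below is one between 2 arrays.

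Tight junctions close the space between neighboring epithelial cells near the lumen. Claudins form the strands that seal this space or let selected ions and water pass, occludin and tricellulin join the strands, and the zonula occludens proteins tie them to the actin skeleton. Gap junctions are channels made of connexins through which ions and small molecules pass from cell to cell. In salivary glands, tight junctions keep primary saliva apart from the interstitial fluid, and gap junctions couple the cells of an acinus.

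Of 59305 spots other than controls, the young array had 55.4% well above background and the aged array 50.8%, by the mark that the scanner software sets. Epithelial markers were present, as the label states. Epcam gave a signal of 1778 in young and 1573 in aged cells, and the signals of Cdh1, Krt8, Krt18 and Krt7 were also well above background on both, while Krt19 was above it only on the young array (34.2 against 12.4). Markers of other cells were present too, since 7 of 7 macrophage and dendritic cell markers, 9 of 10 endothelial markers and 5 of 6 fibroblast markers were well above background on both arrays. Signals are in the arbitrary units of the scanner. A difference is the log2 of the aged signal minus that of the young signal, after division of each by the 75th percentile of its own array (256 for young and 198 for aged cells), so that a gene whose raw signal was lower on the aged array can have a difference above 0. Each probe binds with its own strength, and so levels were compared between the arrays for one gene and never between genes.

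A few of the array's oligonucleotides show what was read for the genes on which the results turn. Jam3 and Gja1 are the genes that differed by 2-fold or more, Cldn10 and F11r had the brightest probes among the claudins and adhesion molecules, Cldn12 was among the claudins higher in aged cells, and the 2 probes of Marveld1 differed from each other. Of the 60 bases of each probe, the last 30 are given, 5′ to 3′, as the scanner files list them, and capitals mark AATAAA, a common signal for the end of a messenger RNA.
Jam3: aagtctgaaatggtactgaagtctcctttt
Gja1: agctgccaatcgattgtggaggataaaaaa
Cldn10: taaaaccgcaggcccttcaaaacagtttga
F11r: cgcacggaccctttgaagatatgtgtggat
Cldn12: ggagaagAATAAAcctgagattctgagttc
Marveld1, brightest probe: acagataagattattataatacccaccttt
Marveld1, second probe: gtggctaatactttttctgaggctaaggta

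In the coordinates of the files (NCBI37, mm9), the bases shown for Jam3 lie at chr9:26905298-26905327 on the minus strand and those for Cldn12 at chr5:5505223-5505252 on the minus strand. Those for Cldn10 lie at chr14:119273489-119273518 and those for F11r at chr1:173393878-173393907, both on the plus strand. The bases shown for the Marveld1 probes lie on the plus strand at chr19:42225853-42225882 and chr19:42224630-42224659. The Gja1 probe spans 491 bases, from chr10:56108488-56108978 on the plus strand, and so is split over the genome. AATAAA, searched as written on the strand of the probe, was among the last 30 bases of 7 of the 49 probes of junction genes that rose above background on either array, Cldn1, Cldn3, Cldn12, Cldn24 and Tjp3 included, and among those of 8.13% of all 56605 probes. Exon and untranslated positions of the probes were not analysed here.

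Most junction genes that could be measured differed little between the ages. Of the 61 genes, 35 were well above background on both arrays, 3 on the young array only, none on the aged array only and 23 on neither. Among the 35, Gja1 passed 2-fold on the side higher with age, Jam3 on the side lower with age, and 33 lay within 2-fold. Over all 18745 genes measured on both arrays, 1.52% were higher with age by 2-fold or more and 3.05% were lower, so that 1 of 35 in each direction (2.86%) is near this background. The median difference of the 35 genes was 0.01, with quartiles of -0.27 and 0.24, against a median of 0.09 over all genes. The difference was above 0 for 18 of the 35 genes (51.4%) and for 59.9% of all genes.

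At 1.5-fold, 6 of the 35 were higher on the aged array (17.1%, against 9.82% of all genes), namely Cldn12, Cldn15, Gja1, Gja5, Gjb2 and Gjb6, and 3 were lower (8.57%, against 7.42%), namely Cldn23, Jam2 and Jam3. The error that the software gives for each spot amounts to an SD of 0.20 to 0.43 for these differences on the log2 scale. It covers the measurement of a spot and neither the mice nor the labelling. By over 2 times this error, 7 genes were higher on the aged array, against 17.4% of all genes, and 6 were lower, against 10.6%. The higher ones were the same 6 as at 1.5-fold and Cldn10. The lower ones were Jam2, Jam3, Ocln and the claudins Cldn1, Cldn4 and Cldn23.

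**Figure D1:**
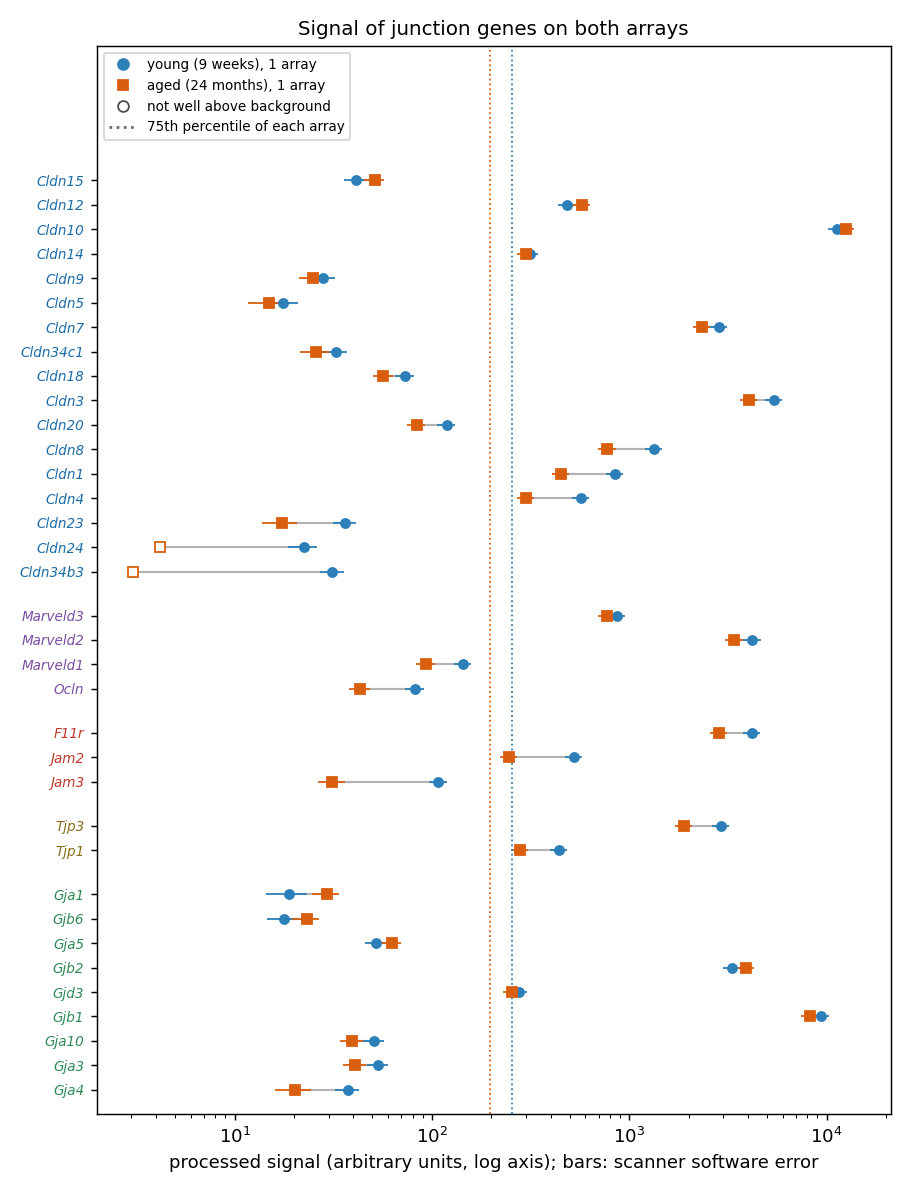
Processed signal (x axis, arbitrary units, log scale) of 35 junction genes above background on either array, on the young (circles) and aged (squares) array, with bars for the software error of values above background. Open symbols are values not well above background, dotted lines mark the 75th percentiles of 256 (young) and 198 (aged), and the widest gap among genes measured on both arrays is that of Jam3.

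**Figure D2:**
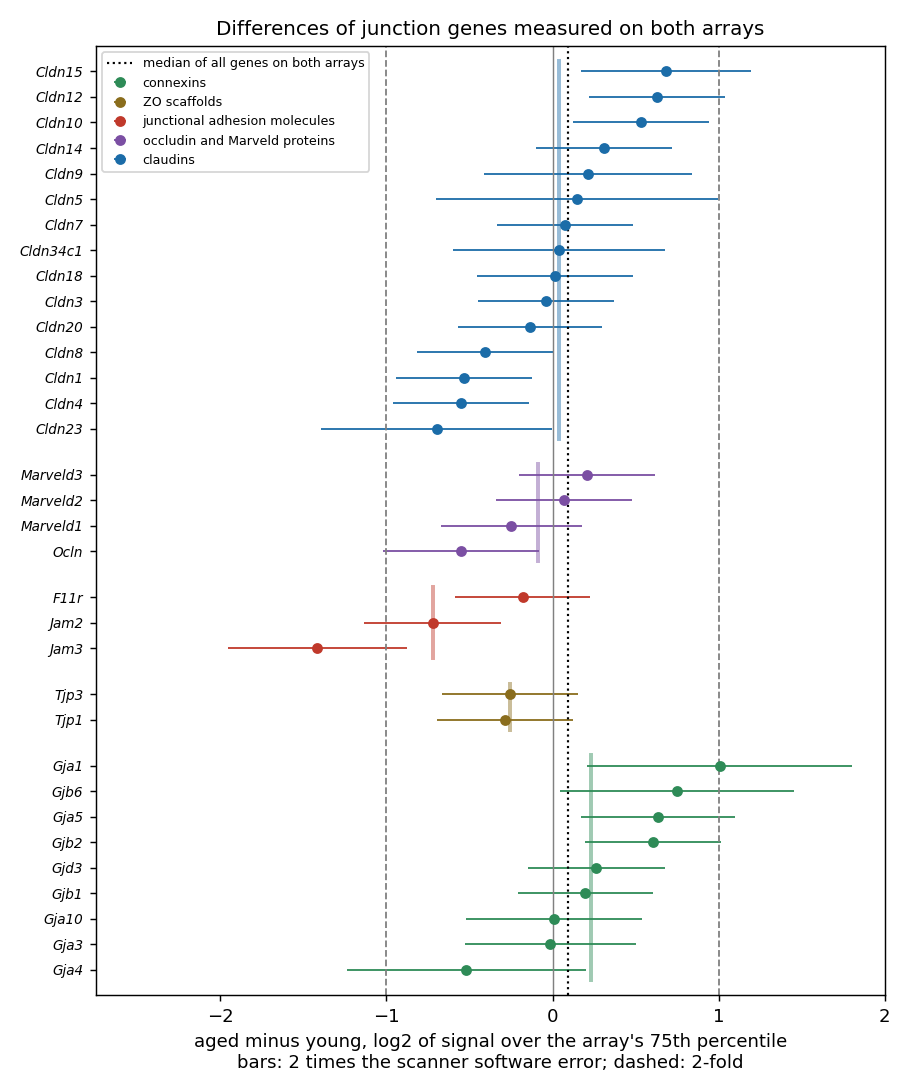
Difference between the ages (x axis, log2, aged minus young, relative to the 75th percentile) of 33 junction genes measured on both arrays, with bars of 2 times the software error, thick lines for the median of each family and a dotted line for the median of all genes (0.09). Jam3 lies beyond the dashed 2-fold line on the left and Gja1 just beyond the one on the right.

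Among the 32 claudins, 15 were measured on both arrays, 2 on the young array only and 15 on neither. None of the 15 reached 2-fold. Their differences ran from -0.70 to 0.68 with a median of 0.04, 9 above 0 and 6 below.

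On the higher side, Cldn10, which forms ion-selective paracellular channels, gave signals of 11262 in young and 12590 in aged cells, a difference of 0.53 ± 0.20 (SD from the software error, as in all such values below). Cldn12 gave 483 and 576, a difference of 0.63 ± 0.20. Cldn15, a cation pore known from the intestine, gave 41.4 and 51.3, a difference of 0.68 ± 0.26. The aged array was the brighter one for these 3 claudins even before scaling, as it was for Gja1, Gja5, Gjb2 and Gjb6, whereas it was dimmer for the other 28 of the 35 genes. The differences of Cldn12 and Cldn15 were above 0 under all 7 scalings of the arrays that were tried, while that of Cldn10 ran from -0.01 to 0.71. The 7 acinar markers (Aqp5, Bhlha15, Smgc, Muc19, Dcpp1, Dcpp2 and Pip) were all on both arrays, 4 above 0 and 3 below. Smgc (-1.79), Muc19 (-0.89) and Bhlha15 (-0.04) were lower, and the others lay between 0.37 and 0.51. The summed signal of all 7 was 5700 times the 75th percentile on the young and 7521 times on the aged array. It came mostly from Dcpp1, Dcpp2 and Pip, since such sums weigh the brightest probes of a list most. The part of cell composition in the claudin values was not tested, and fewer cells of a type and less RNA per cell cannot be told apart in such bulk samples.

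On the lower side, Cldn1, a sealing claudin whose loss opens the skin barrier, gave 848 in young and 452 in aged cells, a difference of -0.53 ± 0.20. Cldn4, a sealing claudin of many ducts, gave 567 and 299, a difference of -0.55 ± 0.20. Cldn8, a claudin of tight segments of ducts and tubules, gave 1329 and 775, a difference of -0.41 ± 0.20. These 3 were below 0 under all 7 scalings, at values between -0.81 and -0.23. Cldn23 was dim, at 36.4 and 17.3, with a difference of -0.70 ± 0.35 that shrank to -0.0047 after normexp, another background correction. Of 6 granular duct markers, Egf, Ren1, Klk1, Klk1b22 and Klk1b9 included, 5 were lower on the aged array, with a median of -0.29 and a summed signal of 1265 and 1164 times the 75th percentile on the young and aged array, and their part in the values of the duct claudins was not tested.

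The other 8 claudins on both arrays lay between -0.14 and 0.31. Cldn3, another sealing claudin, gave 5395 and 4060, a difference of -0.04 ± 0.20, and Cldn7, a claudin of the basolateral membrane as well as the junction, gave 2859 and 2326, a difference of 0.07 ± 0.20. Both differences were close to 0, and both changed sign with the scaling. Cldn14, known from the inner ear and kidney, gave 313 and 300 (0.31 ± 0.21), Cldn18, known from stomach and lung, 72.8 and 56.9 (0.01 ± 0.23), and Cldn20 119 and 83.8 (-0.14 ± 0.22). Cldn9, Cldn34c1 and Cldn5, the main claudin of endothelium, had young signals from 17.6 to 32.6 and aged signals from 15.0 to 25.9, near the lowest signals marked as well above background (14.1 and 14.3).

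Among the 21346 genes that stood well above background on either array, 9.91% did so on the young array only, and among the 38 such junction genes 3 did (7.89%). Cldn34b3 gave 31.4 on the young array and 3.06, not well above background, on the aged array, and was at least 1.70-fold lower there. Cldn24 gave 22.4 and 4.20, at least 1.22-fold lower. The probe of Cldn22 lies between this probe and the second one of Cldn24, and whether both read Cldn24 was not tested. That second probe was likewise above background on the young array only (17.9 and 3.33), and too dim there to give a bound. Such a bound sets the bright signal against the lowest one marked as well above background on the other array. Neither bound reached 2-fold under the main scaling, as 24.9% of the 2116 genes on the young array only did. The bound of Cldn34b3 was 2.03-fold with spike-in controls and 1.08-fold after normexp, and that of Cldn24 vanished after normexp. Cldn34b3 belongs to a cluster of similar genes on the X chromosome, and whether its probe also binds their transcripts was not tested.

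The claudins well above background on neither array were Cldn2, the cation and water pore of leaky epithelia, Cldn6, Cldn11, Cldn13, Cldn16, Cldn17, Cldn19, Cldn22, Cldn34a, Cldn34b1, Cldn34b2, Cldn34b4, Cldn34c4, Cldn34d and the pseudogene Cldn34-ps. Cldn16 and Cldn19 are known from the loop of Henle, Cldn11 from myelin and testis, and Cldn6 from embryonic epithelia. No fold is given for them, since neither array measured them.

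Occludin and the Marveld proteins, which span the membrane in tight junction strands, were all measured on both arrays, with a median difference of -0.09. Occludin gave 82.2 in young and 43.3 in aged cells, a difference of -0.55 ± 0.24. It was the lowest of these 4 genes and stayed below 0 under all 7 scalings, from -0.81 to -0.17. Marveld2 (tricellulin), which closes the points where 3 cells meet, gave 4209 and 3412, a difference of 0.07 ± 0.20. Marveld3 gave 869 and 776, a difference of 0.21 ± 0.20, and Marveld1, which shares the membrane-spanning fold, gave 144 and 93.4, a difference of -0.25 ± 0.21.

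Dimmer probes of the same genes gave other values. The second probe of Marveld1, at 88.2 and 27.8, had a difference of -1.29 ± 0.26, which is 1.04 below that of the brightest probe and past 2-fold. The second probe of Marveld2, at 57.3 and 29.6, had -0.58 ± 0.27. Probes of Marveld3 differed by 0.23, those of Tjp1 by 0.13 and those of Tjp3 by 0.10. Whether the probes of Marveld1 and Marveld2 read different transcripts was not tested.

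**Figure D3:**
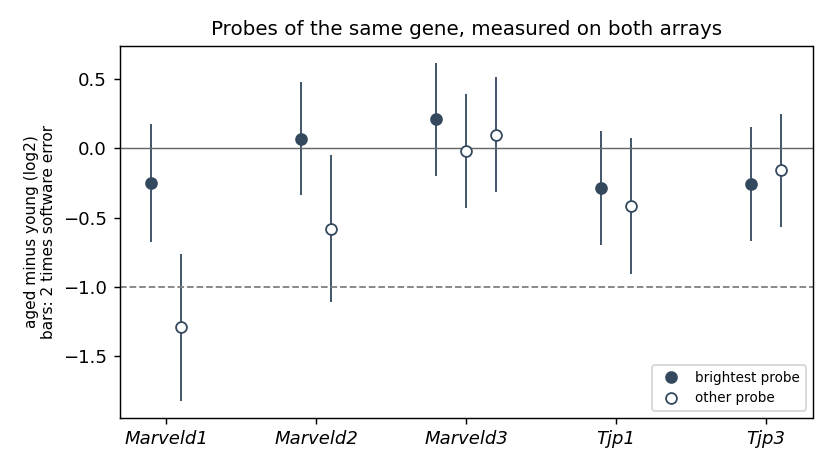
Difference between the ages (y axis, log2, aged minus young) for each probe of 5 junction genes with at least 2 probes measured on both arrays, with bars of 2 times the software error. Filled points are the brightest probes and open points the others; the probes of Marveld1 lie 1.04 apart, and those of Tjp1 and Tjp3 no more than 0.13.

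The junctional adhesion molecules were the one family in which all measured genes were lower on the aged array under all 7 scalings. They are immunoglobulin-like proteins beside the strands, found on epithelium, endothelium and leukocytes. Jam3 (JAM-C) gave 108 ± 11.4 in young and 31.3 ± 4.81 in aged cells, a difference of -1.42 ± 0.27, or 2.67-fold lower. Jam2 (JAM-B), which binds Jam3 on neighboring cells, gave 525 and 246, a difference of -0.72 ± 0.21, or 1.65-fold lower. F11r (JAM-A), the family's epithelial member, gave 4180 and 2850, a difference of -0.18 ± 0.20.

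The order of these 3 differences was not the same under every setting, and the aged signal of Jam3 was low. Over the 7 scalings, Jam3 ran from -1.67 to -0.52, the last after normexp, which adds a constant to every signal, and it was past 2-fold under the other 6. Jam2 ran from -0.98 to -0.55 and F11r from -0.51 to -0.01. The second probe of Jam2, above background on the young array only (18.6 and 10.2), was at least 1.01-fold lower.

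Markers of other cell types that carry adhesion molecules were also lower on the aged array. Of 10 endothelial markers, 9 were on both arrays and 7 of these were lower, with a median of -0.56, and their summed signal was 11.1 times the 75th percentile on the young and 7.62 times on the aged array. Pecam1 (0.10) and Sox17 (0.49) were the exceptions, and Tek was at background on the aged array. Of 6 fibroblast markers, the 5 on both arrays were all lower (median -1.44, summed signal 18.6 and 8.70 times the 75th percentile), and Pdgfra was at background on the aged array. All 7 macrophage and dendritic cell markers were lower (median -1.23, summed signal 138 and 50.5 times). The part of these cells in the values of Jam2 and Jam3 was not tested. Other junction genes known from endothelium had -0.52 (Gja4), 0.63 (Gja5) and 0.15 (Cldn5, near background), and the adhesion molecule Esam had -0.44 ± 0.21. Gja4 and Cldn5 changed sign with the scaling, while Gja5 and Esam did not.

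The zonula occludens scaffolds, which bind claudins through their PDZ domains, were all bright on both arrays and within 2-fold. Tjp1 (ZO-1) gave 441 and 279, a difference of -0.29 ± 0.21. Tjp3 (ZO-3), found in epithelia, gave 2915 and 1886, a difference of -0.26 ± 0.20. Both differences lay within 2 times the error, and both were below 0 under all 7 scalings.

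Among the 19 connexins, 10 were measured on both arrays, 1 on the young array only and 8 on neither. Of the 10 differences, 7 were above 0 and 3 below, with a range of -0.52 to 1.01. Their median of 0.23 was the highest of the 5 families. It depended on the scaling, from 0.41 after centring on the median to -0.02 when the spike-in controls were used, where 5 connexins were above 0 and 5 below.

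The connexins of secretory cells were bright. Gjb1 (Cx32), the connexin of acinar cells and hepatocytes, gave 9324 in young and 8260 in aged cells, a difference of 0.20 ± 0.20. Gjb2 (Cx26), which mixes with Cx32 in exocrine glands and is known for its part in hearing, gave 3321 and 3903, a difference of 0.60 ± 0.20. Gjb2 was the higher of the pair on this scale and stayed above 0 under all 7 scalings, from 0.27 to 0.78. Gjb1 changed sign, with -0.31 after quantile normalization, and so its direction was not settled. The acinar markers stand beside the claudins above, and their part in the values of Gjb1 and Gjb2 was not tested.

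Gja1 (Cx43), the connexin of heart muscle and of myoepithelial cells, was the only junction gene that was higher in aged cells by 2-fold or more, and it was dim. Its brightest probe gave 18.9 ± 4.36 in young and 29.3 ± 4.44 in aged cells, a difference of 1.01 ± 0.40, or 2.01-fold. The 7 other probes of Gja1 were at background on both arrays, with signals of 3.22 to 12.4 on the young and 3.26 to 7.54 on the aged array. The probe at 12.4 on the young array gave 3.57 on the aged array, and the one at 7.54 on the aged array gave 4.71 on the young. The 2-fold call thus rested on 1 probe, the one split over the genome. The difference was 0.89 with the percentile taken over probes above background on both arrays, 0.75 with spike-in controls and 0.52 after normexp, below 2-fold in each. All 7 basal and myoepithelial markers were on both arrays, with a median of 0.03 and a summed signal of 67.5 and 75.6 times the 75th percentile on the young and aged array. Cnn1 (-2.14) and Myh11 (-1.83) were lower and Krt5, Krt14, Trp63, Acta2 and Oxtr lay between -0.08 and 0.29, and their part in the Gja1 value was not tested.

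Gjb6 (Cx30), a partner of Gjb2 in the cochlea, gave 17.9 and 23.2, a difference of 0.75 ± 0.35. Gja5 (Cx40), known from arterial endothelium and the atria, gave 52.1 and 62.5, a difference of 0.63 ± 0.23. Gja4 (Cx37), another endothelial connexin, gave 37.4 and 20.2, a difference of -0.52 ± 0.36. The pair of endothelial connexins thus lay on opposite sides of 0. Of these 3, only Gja4 changed sign with the scaling, up to 0.08.

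Other connexins on both arrays were Gjd3 at 276 and 256 (0.26 ± 0.21), Gja3 (Cx46), a lens connexin, at 53.4 and 40.9 (-0.01 ± 0.26), and Gja10, known from the retina, at 50.8 and 39.5 (0.01 ± 0.26). The connexins on neither array included Gja6, Gjb5, Gjc1 (Cx45), Gjc3, Gjd2 (Cx36 of neurons) and Gjd4. For all 23 junction genes at background on both arrays, signals ran from 2.83 to 13.8 on the young and from 2.84 to 14.1 on the aged array.

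Some members lie side by side in the genome. In the coordinates of the files, probes of 11 pairs of neighboring members lay within 100 kb of each other, and both genes were measured on both arrays in 4 of these. Gjb2 and Gjb6, 24.5 kb apart on chromosome 14, were both higher on the aged array (0.60 and 0.75), and Gja3, 62.8 kb from Gjb2, was at -0.01. Cldn4 and Cldn3, 41.1 kb apart on chromosome 5, had -0.55 and -0.04. Ocln and Marveld2, 97.9 kb apart on chromosome 13, had -0.55 and 0.07. Under the main scaling, the sign was thus shared in 2 of the 4 pairs. Which pairs shared a sign depended on the scaling. The differences of Cldn3 (-0.40 to 0.14), Gja3 (-0.27 to 0.16) and Marveld2 (-0.27 to 0.24) changed sign over the scalings. Only for Gjb2 and Gjb6 did both members of a pair keep their sign.

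The direction of many single genes depended on how the arrays were set level. Of the 35 genes, 19 kept their sign under all 7 scalings and 16 did not. Under the main scaling 18 were above 0, under centring on the median 23, and with spike-in controls 9, and over all genes the share above 0 moved alike, from 59.9% to 75.5% and 32.8%. The genes called at 2-fold over the whole array split into 284 higher and 571 lower under the main scaling, 464 and 417 after centring on the median, and 150 and 929 with spike-in controls. The median of the junction genes lay 0.09 below that of all genes under the main scaling. Centring on the median, the restricted percentile and spike-in controls shift all genes alike, so this gap was the same there by construction. It was 0.18 after quantile normalization, 0.18 after loess and 0.02 after normexp.

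**Figure D4:**
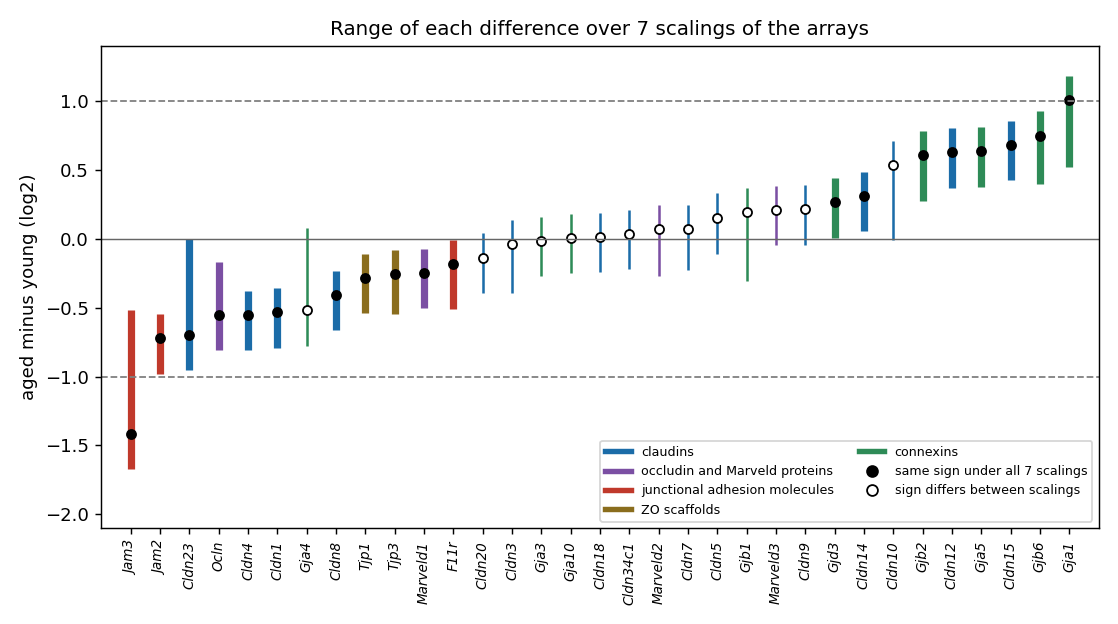
Difference between the ages (y axis, log2, aged minus young) of 33 junction genes measured on both arrays, in order of the difference under the 75th percentile scaling (points), with vertical bars for the lowest and highest value over 7 scalings. Filled points and thick bars are the 19 genes whose sign was the same under all 7, and open points are 14 whose sign was not.

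Other genes of the junctional complex were given by lists of the partners of tight junction proteins and of adherens junction genes. Of 31 tight junction partners, 27 were measured on both arrays, with a median difference of -0.01, none at least 2-fold higher and 1 lower, and 3 were on the young array only, 1 of them lower past 2-fold by its bound. The 1 measured as lower was Arhgef2, a microtubule-bound exchange factor for RhoA, at 495 and 189, with a difference of -1.01 ± 0.21. Magi2, a scaffold with PDZ domains, gave 47.5 on the young array and 9.42, at background, on the aged array, at least 2.57-fold lower. Cgnl1 (paracingulin), which had the brightest probe of the list, gave 9035 and 6755, a difference of -0.05 ± 0.20.

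All 14 adherens junction genes were measured on both arrays and all lay within 2-fold, with differences from -0.91 (Nectin1) to 0.47 (Pvr) and a median of -0.10. Cdh1 (E-cadherin), which joins epithelial cells below the tight junction, gave 2423 and 1953, a difference of 0.06 ± 0.20. Ctnna1 (alpha-catenin), which had the brightest probe of this list, gave 5650 and 4744, a difference of 0.12 ± 0.20. The medians of both lists were below that of all genes (0.09).

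**Figure D5:**
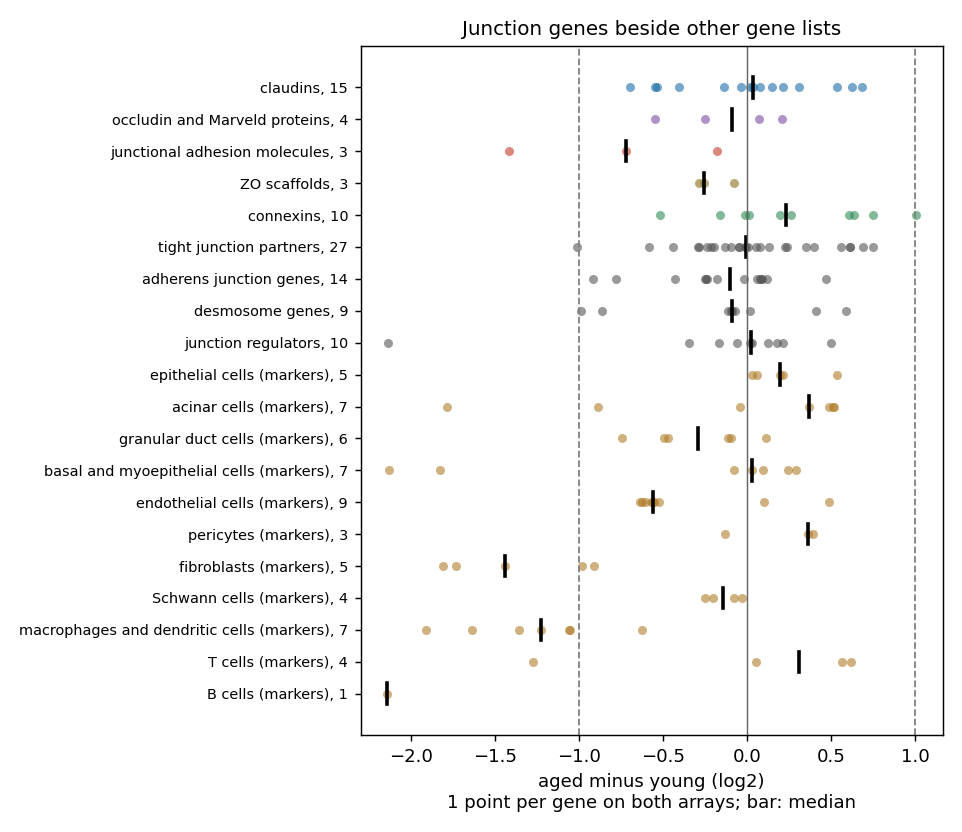
Difference between the ages (x axis, log2, aged minus young) of genes measured on both arrays, 1 point per gene, in the 5 families of junction genes, in 4 other lists of junction genes and their regulators, and in 11 lists of cell type markers, with a black bar for the median and the number of genes beside each name. The junctional adhesion molecules have a median of -0.72, and the other families have medians from -0.26 (ZO scaffolds) to 0.23 (connexins). Marker lists with medians below 0 are endothelial (-0.56), fibroblast (-1.44), macrophage (-1.23), granular duct (-0.29), Schwann (-0.14) and B cell (-2.14, 1 gene). The other marker lists have medians above 0.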

How the data were processed

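RNA from 1 young and 1 aged sample was hybridized to 1-color Agilent arrays (SurePrint G3 Mouse GE, 8 × 60K), both on 1 slide, which therefore could not enter as a block. Per the file headers, the authors' scanner files were made with Agilent Feature Extraction 12.0.3.1 and hold the processed intensity of each spot, with the background subtracted, the software error and marks for outliers and for spots well above background. The deposited value table, made by the authors with GeneSpring, is a ratio of the same intensity to 1 constant per array (229 young, 176 aged), with column medians of 0.0922 and 0.0817; comparison with the scanner values left neither scale, centring nor direction unknown.

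From the deposited intensity, log2 was taken and that of the 75th percentile over spots other than controls was subtracted, after the study's methods, which also name the 2-fold threshold. Outlier spots were left out and spots of a probe averaged. The brightest probe by mean log2 signal, among those well above background on at least 1 array, stood for its gene. All members above background on at least 1 array were named with values or in ranges. Genes of the other junction lists were named when past 2-fold or brightest of their list, and a few others beside them. Where 1 array was not above background, a bound was set against the higher of the probe's own value and the lowest signal well above background there. Members and lists were chosen with earlier results of these data known, the lists covering tight junction partners, adherens junctions, desmosomes, pannexins with Gje1, regulators and markers of 11 cell types.

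The 7 scalings included the main one and the same percentile restricted to probes above background on both arrays. The others were medians set to 0, spike-in controls, normexp (offset 50) with the main percentile, quantile normalization, and loess (span 0.7, 3 iterations). Other alternatives changed the probe, the filters, the threshold and the table. All 61 symbols were found in the RefSeq table (GRCm38.p6), used for names only. Probe sequences had been planned only for coding parts; no transcript table was used here, so only the last 30 bases are printed. R 4.3.3, limma 3.58.1, Python 3.11.15, numpy 2.4.6, pandas 2.3.3 and matplotlib 3.10.9 were used. A few genes are counted in totals and medians but not reported here by name. The steps were tested on simulated data. The number of arrays and the signal over background limit the precision.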

Additional observations from a re-analysis of the deposited data

How the results depend on the processing

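With 1 array per age, no replicate could be left out, and the software error covers only the measurement of a spot. No paired analysis was possible because each age had 1 array. The count of 1 junction gene higher with age by 2-fold or more became 0 with the 75th percentile over probes above background on both arrays, with spike-in controls, after normexp and with the stricter filter on dim probes, and 6 at a 1.5-fold threshold. The count of 1 lower became 0 after normexp, 2 with the second brightest probe (Jam3 and Marveld1), 3 at 1.5-fold and 7 of 61 with no filter on dim probes, a setting that counts all 61 genes as measured on each array. The median difference of 0.01 became -0.22 after loess and -0.25 with spike-in controls, and lay between -0.14 and 0.18 under the other alternatives. No gene past 2-fold changed sign. Relative to the main scaling, the median of all genes shifted by 0.17 with centring on the median, -0.11 with the percentile over probes above background on both arrays, -0.14 with loess and -0.26 with spike-in controls. Of 38 single genes, 24 moved by more than their software error with spike-in controls, 11 with loess, 9 with quantile normalization, 9 with normexp, 5 with the second probe and 2 with the mean of probes; none did with the value table, with outlier spots kept, with either filter on dim probes, with the percentile over probes above background on both arrays or with centring on the median. Spike-in controls, centring on the median and the percentile over probes above background on both arrays shift every gene by the same amount. Their counts therefore reflect only whether that amount exceeds the software error of a gene, which was 0.20 or more. The causes of the other moves were not tested. Low signal limits Gja1, Gja4, Gjb6, Cldn5, Cldn23, Cldn24 and Cldn34b3, among others.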

Other observations

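Desmosomes, which anchor keratin filaments, and the regulators of epithelial junctions were also measured. Of 12 desmosome genes, 9 were measured on both arrays and all lay within 2-fold, with a median of -0.09. The lowest were Dsc2, a desmosomal cadherin, at 64.1 in young and 24.9 in aged cells (-0.99 ± 0.30), and Pkp1, a plakophilin known from skin, at 723 and 308 (-0.86 ± 0.20). Perp, which is needed for desmosome assembly and had the brightest probe of the list, gave 8038 and 9358 (0.59 ± 0.20). The cadherins Dsg1a, Dsg3 and Dsc1 of stratified epithelium were at background on both arrays.

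Of 13 regulators, 10 were on both arrays, with a median of 0.02, none at least 2-fold higher and 1 lower. That gene was Zeb2, a repressor of E-cadherin that is also expressed in leukocytes and stroma, at 141 and 24.7 (-2.14 ± 0.29), beside the lower macrophage and fibroblast markers; their part in it was not tested. Ovol2, an epithelial factor with the brightest probe of the list, gave 3120 and 2623 (0.12 ± 0.20), and Grhl2 and Esrp1, which maintain the epithelial state, had -0.06 and 0.18. Zeb1 and Twist1 were at background on both arrays. Of the pannexins, channel proteins that resemble connexins, Panx1 was dim at 37.0 and 25.6 (-0.16 ± 0.31), and Panx2, Panx3 and Gje1 were at background on both.

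Among lymphocyte markers, Cd3e (0.56), Cd3d (0.62) and Cd4 (0.05) were on both arrays with Cd2 (-1.28), and Cd8a was on neither. Of the B cell markers, Cd79b was on both (-2.14), Ms4a1 was above background in young cells alone, and Cd79a in neither. Of the 6 Schwann cell markers, 4 were on both arrays, with a median of -0.14. Another, S100b, was well above background in aged cells alone (14.8 and 21.6, a difference of 0.92 ± 0.44), and both signals were low. The 6 had a summed signal of 18.1 times the 75th percentile in young and 16.8 times in aged cells. Of the 5 pericyte markers, 3 were on both arrays, with a median of 0.36.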
